A study of Mus musculus with 4 samples.

Results

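The genes described here are Il22, its near-identical copy Iltifb, and Il10, Il10ra and Il10rb, which encode the cytokine IL-10 and both chains of its receptor. They were chosen by name, and all 5 were found among the 24343 genes of the deposited table; 4 of them had enough reads to be tested. The cells were mouse group 3 innate lymphoid cells (ILC3s), lymphocytes without antigen receptors, from animals of genotype IL23R-GFP/WT, in which 1 copy of the IL-23 receptor gene carries a GFP reporter. They were sorted as lineage-negative cells positive for CD127 and for the GFP reporter, so that both groups share the reporter allele and the sort. There were 2 RNA-seq libraries from cells stimulated with TL1A, a TNF superfamily cytokine, and 2 from cells kept in medium; the medium libraries are those whose labels name no stimulus. The sources used here do not give dose, duration, age or tissue. Nothing in the labels ties the libraries of a group to separate animals or cultures, so p-values here reflect the spread among the deposited libraries, which may be technical.

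IL-22 is the signature cytokine of ILC3s and acts on epithelial cells at mucosal surfaces, where it supports barrier defence. It belongs to the IL-10 family, whose members signal through paired receptor chains: IL-10RB, the chain that several members share, pairs with IL-22RA1 for IL-22 and with IL-10RA for IL-10. Both receptors use the kinases JAK1 and TYK2 and the transcription factor STAT3. In the mouse, Iltifb is a duplicate of Il22 that has been described as lacking the upstream first exon and part of the promoter of Il22.

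The copies lie on the same chromosome on opposite strands. In GENCODE vM21 (build GRCm38, not the mm9 build on which the reads were counted), Il22 spans chr10:118204942-118210047 on the plus strand and Iltifb spans chr10:118289629-118295038 on the minus strand. Each transcript has 5 exons, with 1110 bases for Il22 and 1111 for Iltifb. Exon 1 has 235 bases in both, so an upstream exon of Il22 alone is not part of the transcript compared here. Of 1110 aligned bases 29 differed, which left 97.39% identical, beside 1 gap position. In the coding sequence 9 of 537 bases differed, in 9 codons, of which 3 encode another residue. The first 300 coding bases are shown because they hold 6 of these 9 differences. Such differences are among the letters by which a read can be placed on either copy, and 17 further ones lie after the coding sequence. Capitals mark the bases that differ (GENCODE vM21 transcripts, 5′ to 3′, from the start codon).
Il22: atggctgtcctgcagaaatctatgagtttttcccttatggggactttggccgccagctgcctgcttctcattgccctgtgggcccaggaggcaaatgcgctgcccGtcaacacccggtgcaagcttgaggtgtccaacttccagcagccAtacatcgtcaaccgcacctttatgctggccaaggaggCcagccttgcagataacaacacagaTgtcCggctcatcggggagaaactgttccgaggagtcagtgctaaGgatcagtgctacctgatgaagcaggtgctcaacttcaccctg
Iltifb: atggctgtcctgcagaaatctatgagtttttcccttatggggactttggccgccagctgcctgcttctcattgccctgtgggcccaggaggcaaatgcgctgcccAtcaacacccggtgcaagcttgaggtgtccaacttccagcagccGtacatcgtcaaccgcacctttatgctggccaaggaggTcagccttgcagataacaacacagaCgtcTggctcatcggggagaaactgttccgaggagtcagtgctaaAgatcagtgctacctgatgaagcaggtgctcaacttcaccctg

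Of the differences, exon 1 held 5, exon 2 held 3, exon 3 held 1, exon 4 held none and exon 5 held 20. Stretches of 107, 215, 157, 123 and 78 bases were identical in both copies. Of all windows of 50 bases in the Il22 transcript, 41% were also found letter for letter in Iltifb, and the share was 29.9% for windows of 75 bases and 20.4% for windows of 100 bases. A read that lies wholly in such a window aligns to both copies and belongs to the class of not uniquely aligned reads, which were left out of the gene counts. The sources used here do not give the read length. The counts of both genes therefore leave out such reads, in a number that the table does not show.

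**Figure D1:**
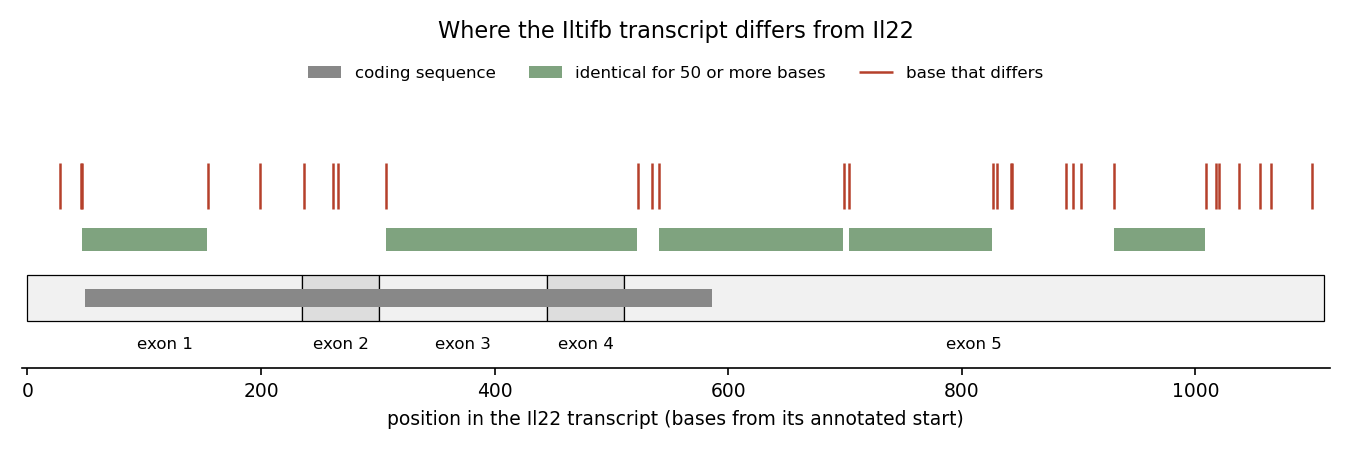
Map of the Il22 transcript in bases from its annotated start, with its 5 exons and its coding sequence as boxes, the 29 bases that differ in Iltifb as red lines, and identical stretches of 50 or more bases as green bars. Exon 5, the longest, holds 20 of the differences, while 215 bases from exon 3 to exon 5 are the same in both copies.

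Upstream of the annotated starts, the copies were compared base by base. The windows are shown because the genes are compared below for moving together. Capitals mark the stretch next to the start that the copies share (RefSeq, GRCm38.p6). Only the part of each window from the GENCODE vM21 start on was left out. Whether transcription starts further upstream was not tested, so the windows may hold transcribed bases. Upstream windows were matched for 2 of the 5 genes.
Il22, chr10:118204714-118204941, plus strand: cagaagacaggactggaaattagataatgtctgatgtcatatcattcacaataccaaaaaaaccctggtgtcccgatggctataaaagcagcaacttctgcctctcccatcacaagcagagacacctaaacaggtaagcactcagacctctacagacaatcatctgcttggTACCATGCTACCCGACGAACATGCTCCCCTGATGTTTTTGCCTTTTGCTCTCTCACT
Iltifb, chr10:118295039-118295288, minus strand: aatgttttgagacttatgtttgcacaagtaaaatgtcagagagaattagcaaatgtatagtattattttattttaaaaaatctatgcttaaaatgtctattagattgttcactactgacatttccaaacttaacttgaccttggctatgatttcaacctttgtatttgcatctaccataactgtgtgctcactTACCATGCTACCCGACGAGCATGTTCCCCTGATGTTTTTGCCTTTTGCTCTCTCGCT

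In the 57 bases next to the start, 54 were identical at the same distance. In the 171 bases beyond, 42 were identical at the same distance, or 24.6%. No gaps were allowed, so an insertion or deletion in 1 copy would also lower this share. The letters TATAAA, read on both strands, occurred 1 time in the Il22 window, 148 bases before the annotated start, and had no match in the 228 bases nearest the start of Iltifb; 11.9% of 27025 gene windows of this length hold them. The letters AGGTCA, a nuclear receptor motif, occurred 1 time in the Iltifb window, at 115 bases, and not in that of Il22, against 12.7% of all windows. The NF-κB consensus and the letters TGANTCA (AP-1), TTCNNNGAA (STAT) and CACGTG (the E-box of BHLHE40) had no match in either window, against 43.7%, 6.31%, 6.47% and 5.75% of all windows that hold them, in that order. These matches describe letters only.

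Il22 was among the most abundant transcripts after TL1A, at rank 9 by CPM, against rank 3776 in medium. It had 73476 and 82527 reads in the TL1A libraries, against 709 and 519 in the medium libraries. In CPM, read counts scaled to library size with the trimmed mean of M-values (TMM), these were 6834 and 7115 CPM with TL1A and 56.5 and 38.9 CPM in medium. The groups lay far apart, and the medium libraries differed more from each other, in proportion, than the TL1A libraries did. The log2 fold change was 7.19 (SE 0.18, 95% interval 6.77 to 7.62, edgeR quasi-likelihood test, Benjamini-Hochberg adjusted p = 2.79e-07), a 146-fold difference. In bulk RNA, more cells that make a transcript and more transcript per cell cannot be told apart.

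Iltifb moved with Il22. It had 5580 and 6018 reads in the TL1A libraries, against 62 and 43 in the medium libraries, or 519 and 518.9 CPM with TL1A and 4.94 and 3.22 CPM in medium. The groups did not overlap, as was the case for 72.2% of the genes tested. As for Il22, the first medium library was the higher of the medium pair. The log2 fold change was 6.99 (SE 0.16, 95% interval 6.63 to 7.36, edgeR adjusted p = 2.27e-07).

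Taken as 1 gene, so that it does not matter to which copy a read was given, the pair had 79056 and 88545 reads with TL1A and 771 and 562 in medium. Mean levels were 7494 ± 200 CPM with TL1A and 51.7 ± 13.6 CPM in medium (SD, n = 2 each). The log2 fold change of the sum was 7.18 (SE 0.18, 95% interval 6.75 to 7.61, edgeR adjusted p = 3.23e-07). The pair took 0.667% and 0.702% of all assigned reads in the TL1A libraries, against 0.00671% and 0.0046% in the medium libraries. Among 9851 genes tested with the copies summed, 36 had a larger fitted log2 fold change.

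Iltifb received a small share of the pair's reads in every library. It took 7.06% of the pair's reads in TL1A replicate 1 (95% exact Clopper-Pearson interval 6.88% to 7.24%) and 6.8% in TL1A replicate 2 (6.63% to 6.96%). In medium it took 8.04% in replicate 1 (6.22% to 10.2%) and 7.65% in replicate 2 (5.59% to 10.2%). These intervals cover counting error only, and those of the medium libraries, which rest on few reads, contain both TL1A values. The means were 6.93 ± 0.19% with TL1A and 7.85 ± 0.28% in medium (SD, n = 2 each), a difference of -0.92 percentage points. An exact two-sided permutation test gave p = 0.333, the smallest that 2 against 2 libraries allow. The edgeR test of unequal change within a gene (diffSpliceDGE), with the copies given 1 gene name, gave an adjusted p of 0.748 over 269 genes with several rows. Every library thus had about 11.4 to 13.7 reads on Il22 for each read on Iltifb. Whether the reads on Iltifb came from that gene or were Il22 reads placed there was not tested.

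**Figure D2:**
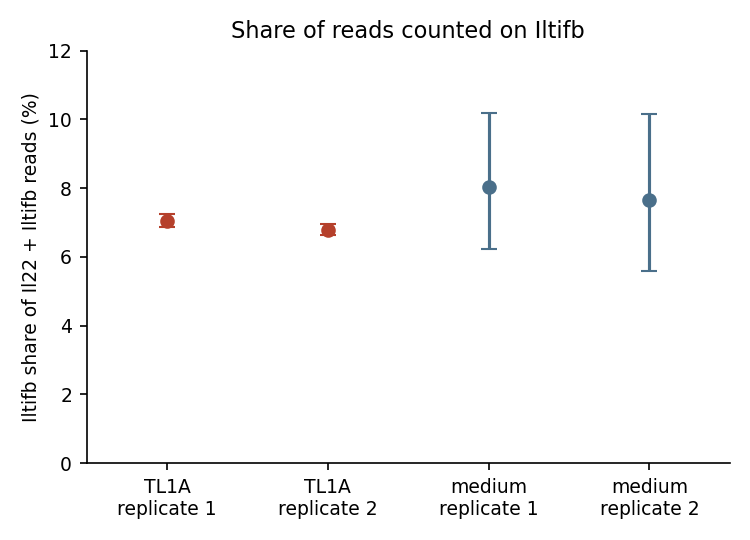
Share of the reads of Il22 plus Iltifb that were counted on Iltifb, in percent, in each of the 4 libraries; bars are 95% exact binomial intervals. The shares lie between 6.8% and 8.04%, and the medium intervals contain both TL1A values.

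Levels can be compared between genes only per length. Per kilobase of transcript (GENCODE vM21 lengths, 8471 tested genes with 1 deposited row and a matched length), Il22 reached 6283 CPM per kilobase with TL1A and 42.9 in medium. It ranked 5 in the stimulated cells and 1900 in medium. Iltifb had 467.1 CPM per kilobase with TL1A and 3.67 in medium, at ranks 142 and 6058. Il10rb followed with 23.9 CPM per kilobase with TL1A and 15.4 in medium, and Il10ra had 0.663 with TL1A and 0.701 in medium. The order of the 4 genes was Il22, Iltifb, Il10rb and Il10ra with TL1A, and Il22, Il10rb, Iltifb and Il10ra in medium. The values of Il22 and Iltifb leave out reads that could not be placed.

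Il10, which encodes the family's founding anti-inflammatory cytokine, was hardly counted in any library. It had 0 and 0 reads with TL1A and 0 and 1 read in medium. The floor was taken as 3 counts per library. A count of 0 then leaves room for levels up to 0.279 CPM in TL1A replicate 1 and 0.259 CPM in TL1A replicate 2. A difference below these levels could thus not be detected at this depth. The other cytokine genes of the family were also near or at 0: Il19, Il24, Ifnl2 and Ifnl3 had no read in any library, and Il20 had 1 read in medium replicate 1. Of the 8 family cytokine genes, 2 were tested, Il22 and Iltifb, and both rose. Across all 9852 genes tested, 20.6% were called higher and 21.7% lower at an adjusted p under 0.05, or 2027 and 2141 genes; without TMM factors these were 1310 and 3475 genes.

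**Figure D3:**
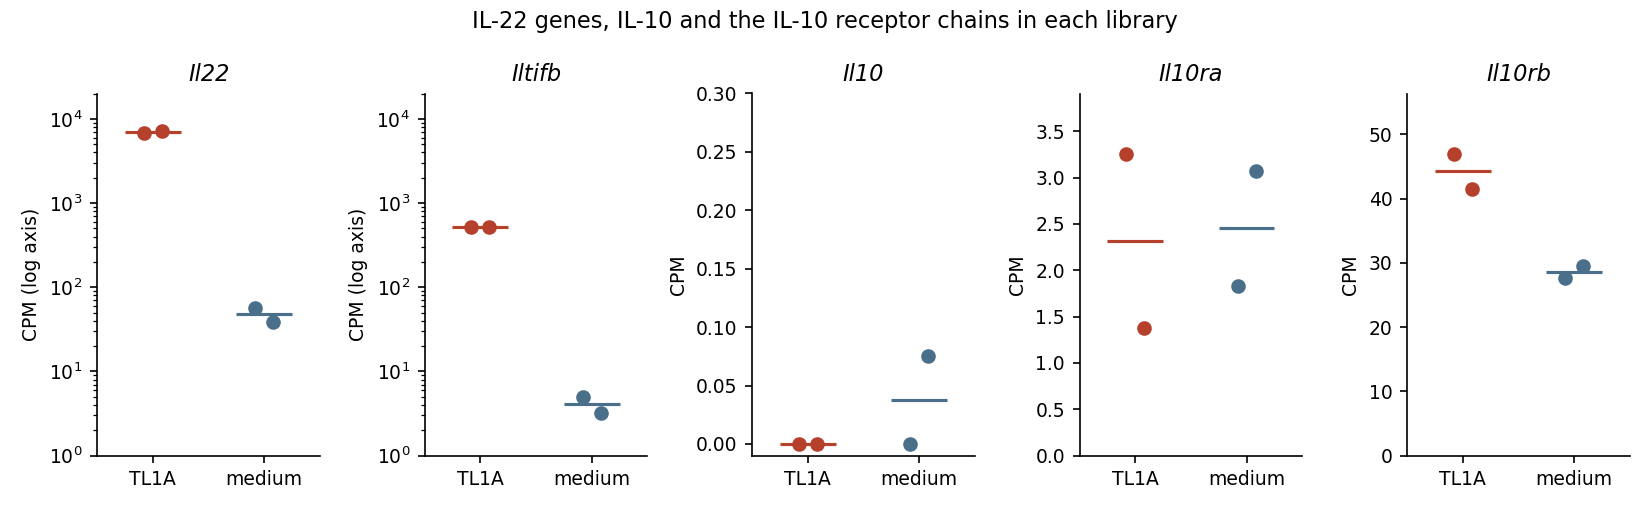
CPM of the 5 genes in each library, TL1A left and medium right, with lines at the means; the axes of Il22 and Iltifb are logarithmic and the others linear. The groups are separate for Il22, Iltifb and Il10rb, overlap for Il10ra, and Il10 has 1 read in 1 medium library. Separate groups occurred for 72.2% of all genes tested.

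Il10rb, the chain shared by the receptors for IL-10 and IL-22, was modestly higher with TL1A. It had 505 and 482 reads in the TL1A libraries, against 347 and 394 in the medium libraries, or 47 and 41.6 CPM with TL1A and 27.6 and 29.5 CPM in medium. The groups did not overlap, as was the case for 72.2% of the genes tested. The log2 fold change was 0.63 (SE 0.14, 95% interval 0.31 to 0.95, edgeR adjusted p = 0.00851), and the call was lost when libraries were scaled by total assigned reads alone (0.37, adjusted p = 0.0547), a scaling that moved the median of all genes by -0.26. GENCODE annotates a further locus, Gm21970, that overlaps Il10rb on the same strand; the sources used here do not say whether the annotation used for counting held it.

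Il10ra, the ligand-binding chain of the IL-10 receptor, was low and showed no change beyond the spread. It had 35 and 16 reads with TL1A and 23 and 41 reads in medium. In CPM these were 3.26 and 1.38 with TL1A and 1.83 and 3.07 in medium, so the groups overlapped and the TL1A group held both the highest and the lowest library. The means were 2.32 ± 1.33 CPM with TL1A and 2.45 ± 0.88 CPM in medium (SD, n = 2 each). The log2 fold change was -0.09 (SE 0.51, edgeR adjusted p = 0.902), and its 95% interval of -1.29 to 1.11 leaves room for changes of more than 2-fold either way. The direction depended on single libraries: leaving out TL1A replicate 2 gave a log2 fold change of 0.41, leaving out medium replicate 2 gave 0.35, and leaving out TL1A replicate 1 gave -0.82.

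Among the other receptor chains of the family, the IL-22 receptor chain gene Il22ra1 and the type III interferon receptor gene Ifnlr1 had no read in any library. Il22ra2, which encodes a soluble IL-22 binding protein that blocks the cytokine, had 7 and 0 reads with TL1A and 17 and 10 in medium, too few to be tested. Il20rb, a chain of the receptors for IL-19, IL-20 and IL-24, had 91 and 73 reads with TL1A and 55 and 60 in medium (log2 fold change 0.73, SE 0.27, edgeR adjusted p = 0.0647). Its partner Il20ra had 3 and 8 reads with TL1A and none in medium. Of 7 receptor genes, 3 were tested: Il10rb rose, none fell and 2 were not called, beside 20.6% called higher over all genes. Their median log2 fold change was 0.63, beside -0.03 over all genes tested.

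Of 10 genes that carry or restrain the signal of these receptors, 6 were tested; 3 rose, none fell and 3 were not called, beside 20.6% higher and 21.7% lower over all genes tested. Their median log2 fold change was 0.41, beside -0.03 over all genes. Jak1, the kinase bound to the ligand-specific chains, rose to 795 ± 36.8 CPM with TL1A, against 543 ± 11.4 CPM in medium (log2 fold change 0.55, SE 0.07, edgeR adjusted p = 0.000519). Tyk2, the kinase bound to IL-10RB, had 23 and 34 reads with TL1A and 7 and 11 in medium (log2 fold change 1.86, SE 0.48, edgeR adjusted p = 0.0175). DESeq2 did not make that call (adjusted p = 0.0773), nor did edgeR once TL1A replicate 2 (adjusted p = 0.143) or medium replicate 1 (adjusted p = 0.0912) was left out. Bcl3, a nuclear IκB protein gene that IL-10 induces in macrophages, rose by 2.22 on the log2 scale (SE 0.19). Socs3, the feedback inhibitor of STAT3 signalling, had 57 and 76 reads with TL1A and 74 and 61 in medium, and its log2 fold change of 0.18 (SE 0.28) changed sign without TMM factors (-0.07). The phosphatase gene Ptpn2, at 0.19 (SE 0.11), did likewise (-0.07). Stat3 itself had no read in any library: it has 3 deposited transcript rows, and a read that falls on more than 1 row was left uncounted, so its level was not measured. Tyk2 and Ptpn2 also have several rows, as do the genes of this list that were not tested, and such sums do not measure the whole gene.

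Of 25 genes known to control Il22, 21 were tested, and 6 rose, 8 fell and 7 were not called, beside 42.3% of all genes tested called in either direction (20.6% higher, 21.7% lower). Their median log2 fold change was -0.03, beside -0.03 over all genes. The genes of this list that were not tested have several deposited rows each, so their levels were not measured. Among transcription factors that rose, Bhlhe40, a basic helix-loop-helix factor, reached 8118 ± 107 CPM with TL1A, against 1738 ± 25.8 CPM in medium (SD, n = 2 each; log2 fold change 2.22, SE 0.05, edgeR adjusted p = 2.59e-07). Batf, an AP-1 family factor needed for IL-22 production by T cells, reached 301 ± 12.5 CPM with TL1A, against 94.4 ± 4.32 CPM in medium (log2 fold change 1.67, SE 0.08). Its partner Irf4, like the remaining called genes of this list, was chosen after values had been seen; it had 841 and 1057 reads with TL1A and 51 and 26 in medium, a log2 fold change of 4.82 (SE 0.28; 5.43 without medium replicate 1). Runx3 rose by 0.46 (SE 0.07) and Maf by 0.39 (SE 0.08) on the log2 scale, and the call of Maf was lost without TMM factors (0.14, adjusted p = 0.185). Zfp36l1, which encodes an mRNA decay factor, rose by 0.83 (SE 0.10).

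The genes that fell included several receptors that drive IL-22 production. Ahr, which encodes the aryl hydrocarbon receptor, had 175 and 192 reads with TL1A and 610 and 688 in medium (log2 fold change -1.61, SE 0.14). Its groups did not overlap, as was the case for 72.2% of the genes tested. The receptor genes Il7r, Il18r1 and Il1r1 fell by 1.59 (SE 0.06), 1.87 (SE 0.08) and 2.14 (SE 0.32) on the log2 scale, and Il23r, the reporter locus, fell by 0.63 (SE 0.06). Il18r1 has 3 deposited rows and Il1r1 has 2, so their sums do not measure the whole gene. The clock repressor gene Nr1d1 fell by 0.72 (SE 0.07). Zfp36, which encodes the mRNA decay factor tristetraprolin, had 46.3 ± 1.03 CPM with TL1A and 181 ± 15.7 CPM in medium (log2 fold change -1.96, SE 0.10, edgeR adjusted p = 7.41e-06).

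Among regulators that were not called, Notch2 had a log2 fold change of 0.12 (SE 0.08; -0.14 without TMM factors) and Gata3 one of -0.21 (SE 0.09), which was called without TMM factors (-0.47, adjusted p = 0.00344). Il12rb1, a chain shared by the receptors for IL-12 and IL-23, had 481 and 1033 reads with TL1A and 1227 and 519 in medium. Its libraries differed more within a group than the group means did. Nfkbiz, an activator of cytokine genes, had no read in any library and has 3 deposited rows.

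**Figure D4:**
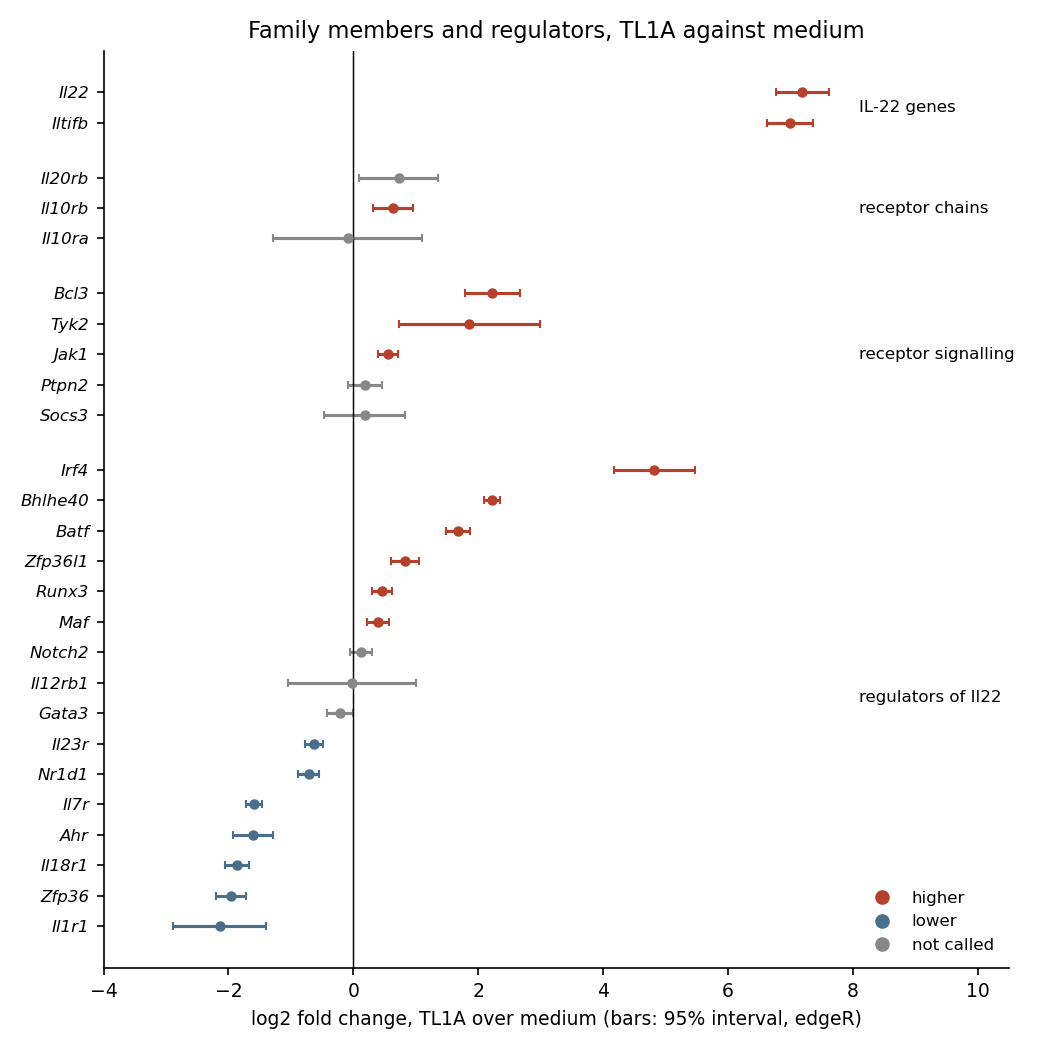
Log2 fold change of TL1A over medium for the IL-22 genes, the tested receptor chains, receptor signalling genes and regulators of Il22, with 95% intervals from edgeR; red is called higher, blue called lower and grey not called. Il22 (7.19) and Iltifb (6.99) lie far to the right of their regulators, of which Irf4 (4.82) had the largest change plotted.

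Of 18 genes known to control Il10, 12 were tested; 6 rose, 3 fell and 3 were not called, beside 20.6% higher and 21.7% lower over all genes. Their median log2 fold change was 0.46, beside -0.03 over all genes. The genes of this list that were not tested have several deposited rows each, so their levels were not measured. Of the called genes, 6 are also on the list for Il22. Prdm1, which encodes the Il10-promoting repressor BLIMP-1, had 236 and 243 reads with TL1A and 47 and 49 in medium (log2 fold change 2.53, SE 0.20, edgeR adjusted p = 5.65e-05). Junb rose by 1.07 (SE 0.22), and Ikzf3, which encodes Aiolos, fell by 0.56 (SE 0.13) on the log2 scale. Junb and Ikzf3 were chosen after values had been seen. Bhlhe40, described above, represses Il10 in mouse T cells. Nfil3 had a log2 fold change of 0.53 (SE 0.24) that was called without TL1A replicate 1 (0.83, adjusted p = 0.0145). Jun had one of 0.29 (SE 0.22) and Atf1 one of 0.11 (SE 0.13; -0.15 without TMM factors). Il10 stayed at 0 or 1 read in every library beside these changes.

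The genes most like the Il22 and Iltifb sum were sought by the root mean square difference of log2 CPM values (prior count 2) centred on each gene's mean, over 4 libraries. They were Tff1 (0.0602), Csf2 (0.226), Adamts14 (0.242), Cxcl16 (0.264) and Cpne2 (0.354). Csf2, which encodes the cytokine GM-CSF, had 88268 and 98388 reads with TL1A and 890 and 910 in medium, and Cxcl16, a chemokine gene, had 4068 and 4855 with TL1A and 32 and 39 in medium. Tff1, which encodes a secreted trefoil peptide, had 343 and 351 reads with TL1A and 1 and 0 in medium, Adamts14 219 and 225 with TL1A and none in medium, and Cpne2 519 and 515 with TL1A and 3 and 4 in medium. The likeness of Tff1, Adamts14 and Cpne2 thus rests on the prior count in medium. For Il10rb they were Zfp111, Dnajc21, Clcn6, Plbd2 and Krtcap2 (0.0189 to 0.0248), and for Il10ra they included Samd1, 8430429K09Rik, Htr2b and Alas1 (0.071 to 0.108). With only 4 libraries many genes lie close to any pattern, and these are descriptions.

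**Figure D5:**
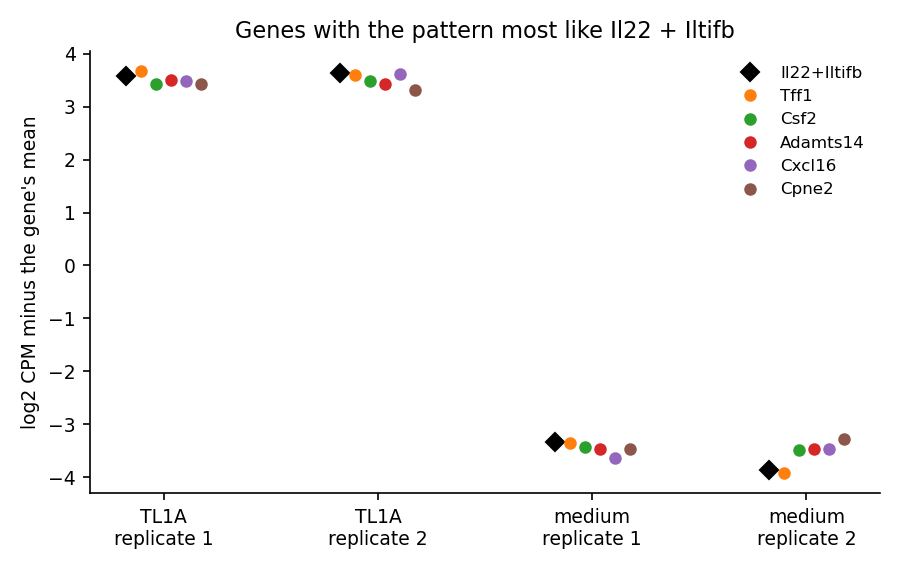
Log2 CPM minus the gene's own mean in each of the 4 libraries for the Il22 and Iltifb sum (black diamonds) and the 5 genes most like it (coloured points). All are high in both TL1A libraries and low in both medium libraries; in medium replicate 2 the sum and Tff1 lie below the other 4 genes.

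The libraries held 11849977 and 12605164 assigned reads for TL1A and 11495636 and 12222552 for medium. Of 14 ILC3 markers 13 were tested, 6 higher and 5 lower, beside 20.6% higher and 21.7% lower over all genes, which also stand beside the counts that follow. Il22 itself is on the ILC3 list and counts among those called higher. Kit had 1 read in all, but it has 2 deposited rows, so its level was not measured, and the same holds for the T cell genes Foxp3 and Cd8a, which had no read. Among defining markers with 1 row, the B cell genes Ms4a1 and Pax5 had no read. The T cell gene Cd3e had 20 and 16 reads with TL1A and 0 and 16 in medium. Cd3g had 26 and 40 reads with TL1A and 19 and 44 in medium, and Cd3d 8 and 9 with TL1A and 2 and 2 in medium. Other listed genes were well above 0: in mean CPM, Cd4 had 95.04 with TL1A and 372 in medium, Lat 108 with TL1A and 127 in medium, and Cd79b 106 with TL1A and 41.5 in medium. The summed level of the T cell list was 212 and 206 CPM with TL1A and 498 and 514 CPM in medium (0 of 5 tested higher, 2 lower), of the B cell list 850 and 778 CPM with TL1A and 154 and 167 CPM in medium (2 of 2 higher), and of the NK cell and ILC1 list 528 and 519 CPM with TL1A and 41 and 41.6 CPM in medium (2 of 6 higher, 2 lower). Blk, at a mean of 707 CPM with TL1A and 118 CPM in medium, made up most of the B cell sum, and Ccl5, at 499 CPM with TL1A and 29.1 CPM in medium, most of the NK cell and ILC1 sum. The myeloid list summed to 1155 and 1130 CPM with TL1A and 1998 and 2176 CPM in medium (2 of 10 higher, 3 lower), the ILC2 list to 173 and 160 CPM with TL1A and 89.5 and 105 CPM in medium (1 of 7 higher, 3 lower), and the epithelial and stromal list to 5.02 and 5.09 CPM with TL1A and 14.3 and 8.16 CPM in medium (none of 3 higher, 1 lower). Fcer1g (mean 690 CPM with TL1A, 1640 CPM in medium) and Cst3 (401 CPM with TL1A, 349 CPM in medium) made up most of the myeloid sum. Klrg1, at 135 CPM with TL1A and 27.6 CPM in medium, made up most of the ILC2 sum with TL1A. The median log2 fold change of the 7 tested ILC2 genes was -1.08, beside -0.03 over all genes tested. The part of these lists in the results was not tested.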

How the data were processed

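RNA-seq of 4 libraries was analysed, 2 for TL1A and 2 for medium. Libraries came from cDNA of the SMARTer Ultra Low Input kit, per the labels' protocols. Per the submitters' processing notes, CASAVA, STAR and HTSeq were used, on build mm9; the sources used here give no versions, strand setting or read length. What the authors deposited are raw counts of reads on each RefSeq transcript. The 5 HTSeq summary rows, which held 69.9% to 71.3% of each column, were left out. Reads shared between transcript rows or copies were not counted on either; the ambiguous class held 33.7% to 34% of its sum with the assigned reads. Of 33535 rows, 33154 matched a symbol (RefSeq table, GRCm38.p6) and rows were summed per gene. The files' rows were transcripts, whereas the plan spoke of genes.

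Tests used edgeR 4.0.16 in R 4.3.3 (filterByExpr minimum count 10, TMM, glmQLFTest, group as the only term, two-sided, Benjamini-Hochberg over 9852 genes, threshold 0.05). The SE is the log2 fold change divided by the square root of F, and CPM uses TMM effective library sizes. For the sum of Il22 and Iltifb the counts were added before the fit. Alternatives were DESeq2 1.42.0, limma 3.58.1 (voom), other scalings and filters, each row on its own, a replicate block and leaving out each library. Named genes were the 5 members, every measured family cytokine and receptor, up to 5 tested genes per regulator or signalling list with the smallest p, up to 3 that were not called, and the nearest patterns; marker lists are given by counts and sums. The other called genes named from the regulator lists were chosen after values had been seen. The members and lists were chosen with earlier results of these data known. Some genes that enter the list counts are not reported here by name.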

Additional observations from a re-analysis of the deposited data

How the results depend on the processing

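The rises of Il22, Iltifb and their sum kept their direction and call under every alternative that gave a value for them. Leaving out 1 library gave log2 fold changes of 6.98 to 7.48 for Il22, 6.74 to 7.32 for Iltifb and 6.96 to 7.47 for the sum, and the difference in the Iltifb share ran from -1.11 to -0.72 percentage points (-0.92 per transcript length). Scaling by total assigned reads alone called 1310 genes higher and 3475 lower, against 2027 and 2141 with TMM, moved the median log2 fold change of all genes by -0.26, ended the call of Il10rb (0.37, adjusted p = 0.0547) and turned the signs of Ptpn2 (-0.073), Socs3 (-0.074), Notch2 (-0.14) and Atf1 (-0.15). Il10ra ran from -0.82 to 0.41 and Il12rb1 from -0.60 to 0.78 over left-out libraries; Il12rb1 was also above 0 with RLE factors (0.0046), DESeq2 (0.0016), limma-voom (0.061) and the replicate block (0.034), against -0.03 in the main test. Causes were not tested. Among the alternatives run, Il22ra2 was called lower only when TL1A replicate 1, the TL1A library with reads, was left out.

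Both groups use the replicate numbers 1 and 2, whose meaning the labels leave unsaid. Deviations of same-numbered libraries correlated at -0.10 over 9852 genes, and with the replicate number as a block 1736 genes were called higher and 1806 lower. Il22 had a log2 fold change of 7.21, the sum 7.20, Il10ra -0.14 and Il10rb 0.63 (adjusted p = 0.0232) in that fit, with no member's call changed. With crossed numbers, chosen after seeing the data, 2295 were called higher and 2439 lower. Il10ra gave no value at a minimum count of 50, the sum gave none for each row on its own, and Il10 gave none in the main test. Depth limits Il10, Il10ra and the share in medium.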
